A study of Mus musculus with 2 samples.

Results

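The genes described here are the TGF-beta ligands Tgfb1, Tgfb2 and Tgfb3, the ligand activator Thbs1, and the target genes Ccn1, Ccn2, Tgfbi, Postn and Cthrc1. They are 9 of the 21014 genes in the deposited tables and were chosen by name. Both tables hold all 9. They were measured in single cells of mouse lung fibroblastic stroma, the cells that build and hold the connective tissue of the lung. One library came from C57Bl/6J mice fed a high fat diet (HFD) for 16 weeks and 1 library from C57Bl/6J mice fed normal chow (NC) for 16 weeks. The labels give no other allele or agent, and give neither the age or sex of the mice nor the number pooled. With 1 library per diet nothing could be checked against replicates or tested, and every difference below is between these 2 libraries.

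TGF-beta is made as a latent dimer that is stored in the matrix and must be released before it can bind its receptors, which then phosphorylate SMAD2 and SMAD3. Thrombospondin-1, the product of Thbs1, is among the proteins that can release it. In lung fibroblasts active TGF-beta raises matrix genes and turns cells towards a contractile, collagen-producing state. Ccn1 and Ccn2 also respond within minutes to mechanical load and serum through YAP, TEAD, MRTF and SRF, so they are not markers of TGF-beta alone.

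After cells under 500 genes or over 10% mitochondrial counts had been left out, there were 6089 cells in HFD and 8140 in NC, with a median of 10045 and 7524 counts per cell. The deposited annotation puts them into 5 classes. HFD and NC held 3092 and 3999 Asc1 fibroblasts, 1095 and 2002 Gas6 fibroblasts, 796 and 1222 Pi16 fibroblasts, 510 and 667 myofibroblasts, and 596 and 250 cells labelled pericytes. The first 4 classes are pooled below as fibroblasts, 5493 cells in HFD and 7890 in NC. The class labelled pericytes was rich in smooth muscle genes. Over 5 smooth muscle markers it summed to 18281 CPM (CPM scales a gene by all counts summed) in HFD and 17774 in NC. Over 6 pericyte markers it summed to 569 and 357 CPM. Acta2 was the largest part of the first sum, at 12769 and 12126 CPM. Acta2 is also on the myofibroblast list, which summed to 22964 and 22312 CPM in this class. Myh11, on the smooth muscle list only, was at 2878 and 2369 CPM, against 96.0 and 146 CPM in myofibroblasts. The class is therefore called by its label. Endothelial markers summed to 0.467 and 1.04 CPM in the pooled fibroblasts of HFD and NC, and epithelial markers to 1.59 and 2.09 CPM. The tables share 16 cell barcodes among kept cells, none with the same total.

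A level is the sum of counts over the cells of a class, as CPM. Intervals are 95% intervals of counting error only, on effective counts, which are counts divided by 1 factor per library, estimated on rare genes. Such genes had a median of 3.25 counts per cell with a count in HFD and 2.66 in NC. The factor is too small for genes with many counts per cell, such as Thbs1, Ccn1, Ccn2 and Postn. In HFD fibroblasts, for example, Thbs1 had 142252 counts in 4135 cells. Intervals of such genes are too narrow and their effective counts too high. A gene was called higher or lower by size where the HFD over NC ratio passed 1.5-fold and the effective counts of both libraries together reached 100. In the pooled fibroblasts 8 of the 9 genes reached that minimum. None was called higher and 1, Thbs1, was called lower, where 4.19% and 3.62% of the 11574 genes measured were called higher and lower. The ratio was above 1 for 5 of the 8 and below 1 for 3. The set as a whole did not move one way: its median log2 ratio was 0.10, against 0.02 for all genes measured.

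The set of RefSeq (GRCm38.p6) starts available here covered 5 of the 9 genes. The 250 bases before the start are shown for Ccn1, Tgfb2 and the downstream start of Postn, as examples of a target, a ligand and a gene found mainly in the class labelled pericytes. Capitals mark GGAATG, the core bound by TEAD factors, CAGAC, bound by SMAD proteins, TGACG, a half-site of the cAMP response element, and TATAAA, the TATA box. Each was searched on both strands, so reverse complements are marked too, and no matches overlapped.
Ccn1: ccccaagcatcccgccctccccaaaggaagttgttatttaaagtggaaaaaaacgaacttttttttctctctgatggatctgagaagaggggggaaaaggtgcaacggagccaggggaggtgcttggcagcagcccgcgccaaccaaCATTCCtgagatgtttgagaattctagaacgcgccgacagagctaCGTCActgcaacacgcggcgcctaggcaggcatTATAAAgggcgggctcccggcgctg
Tgfb2: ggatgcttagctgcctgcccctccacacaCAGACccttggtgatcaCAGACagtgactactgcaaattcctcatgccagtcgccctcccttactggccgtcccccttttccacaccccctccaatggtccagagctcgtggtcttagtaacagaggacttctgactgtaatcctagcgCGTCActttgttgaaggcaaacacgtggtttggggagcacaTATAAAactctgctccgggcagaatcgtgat
Postn: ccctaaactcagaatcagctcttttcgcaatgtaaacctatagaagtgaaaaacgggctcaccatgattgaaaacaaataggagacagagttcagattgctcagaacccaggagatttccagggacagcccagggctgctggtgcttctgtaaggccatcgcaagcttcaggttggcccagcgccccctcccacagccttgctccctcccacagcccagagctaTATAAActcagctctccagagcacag
The Ccn1 window lies at chr3:145649986-145650235 on the minus strand, the Tgfb2 window at chr1:186705990-186706239 on the minus strand, and the Postn window at chr3:54360857-54361106 on the plus strand. Ccn1 has a TEAD core starting 103 bases before its start, a cAMP half-site at 58 and a TATA box at 25, the first 2 on the opposite strand. Tgfb2 has CAGAC at 221 and 204 bases before its start, a cAMP half-site on the opposite strand at 72 and a TATA box at 31. The Postn window has a TATA box at 26 bases and none of the other 3 motifs. The windows not shown were searched too: the upstream Postn start has CAGAC 191 bases before it, Tgfbi has its reverse complement at 239 and 85 bases, and Tgfb1 has no match. Of 32851 RefSeq windows of this length, 12.6% hold the TEAD core, 42.2% CAGAC, 17.8% the cAMP half-site and 12.4% the TATA box. A match describes letters and is no sign that a factor binds there.

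**Figure D1:**
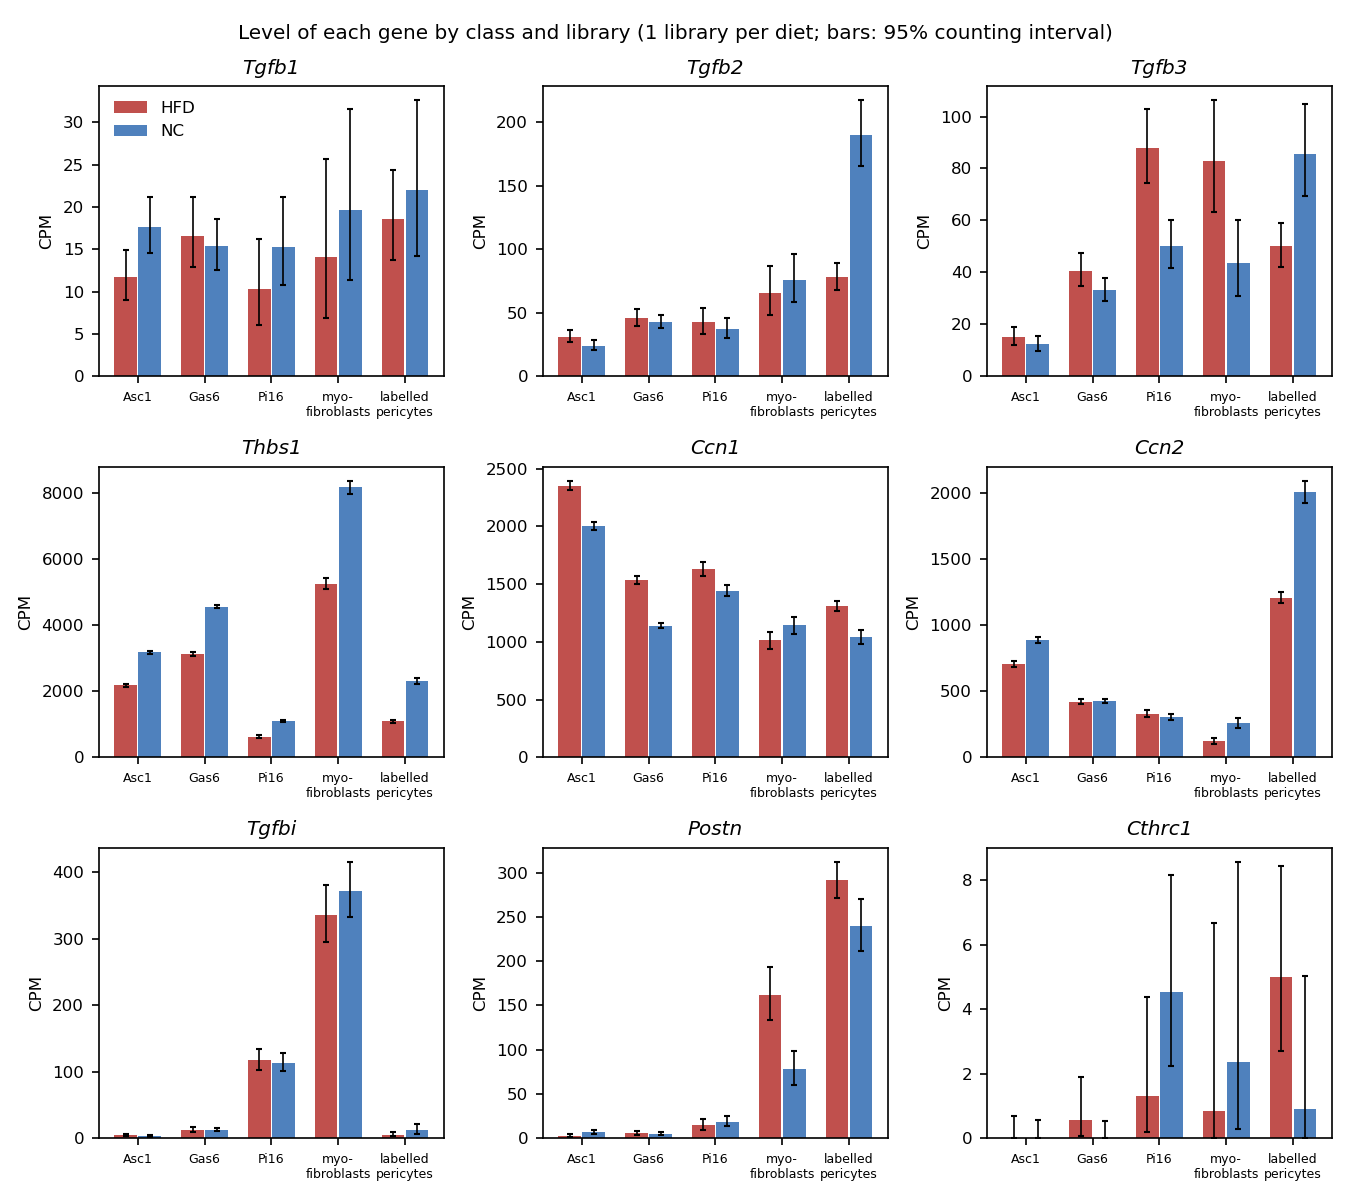
Level in CPM (y axis, from 0) of each of the 9 genes in the 5 classes (x axis), HFD left of NC, with 1 library per diet and bars for the 95% counting interval. Thbs1 stands lower in HFD in every class, Tgfb2 differs mainly in the class labelled pericytes (78.2 CPM in HFD, 190.03 in NC), and Tgfbi and Postn are concentrated in 2 classes each.

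Of the ligands, Tgfb1, the form made by most cell types, was low in every class. It was at 13.3 CPM in HFD fibroblasts and 16.5 CPM in NC fibroblasts, a ratio of 0.808 (0.660 to 0.986). In Asc1 fibroblasts, the alveolar class, it was at 11.7 CPM in HFD and 17.6 CPM in NC, and the ratio of 0.665 lay just past the call (0.481 to 0.912). Of 7 other settings 3 kept it past 1.5-fold, and means of per-cell values gave a log2 ratio of -0.45. In Gas6 fibroblasts the levels were 16.6 CPM in HFD and 15.4 CPM in NC, but 1 HFD cell held 80 of 322 counts. Without the 1% of cells with most Tgfb1 counts the log2 ratio there was -0.24, against 0.11 with them. No neighbouring pair in the order of classes differed beyond its counting interval, in either library. Immune cells and platelets also make Tgfb1. The 5 immune markers summed to 36.1 CPM in HFD fibroblasts and 51.1 in NC fibroblasts. Plac8 was the largest part, at 18.6 and 35.9 CPM, while Ptprc and Cd3e were at 0 in both. The 2 measured platelet markers summed to 6.78 and 6.13 CPM. The part of immune cells and platelets in the Tgfb1 level was not tested.

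Tgfb2 was highest in the class labelled pericytes in both libraries, and that class also held the largest difference. There it was at 78.2 CPM in HFD and 190.03 CPM in NC, a ratio of 0.412 (0.339 to 0.500). A count was found in 31.4% of those cells in HFD and 48.4% in NC. With every cell thinned to 2000 counts the shares were 10.2% and 24.8%, against 4.01% and 2.94% in Asc1 fibroblasts, the class with the least. Thinning matches the total count per cell, not the number of molecules behind it. In NC the class exceeded the next one, myofibroblasts, by 2.52-fold (1.89 to 3.39). In HFD that step was 1.20-fold, and its interval (0.871 to 1.67) holds 1. In fibroblasts Tgfb2 was at 39.8 CPM in HFD and 36.5 CPM in NC. Asc1 fibroblasts had 31.1 and 24.2 CPM, Gas6 fibroblasts 45.8 and 42.9 CPM, Pi16 fibroblasts 42.8 and 37.4 CPM, and myofibroblasts 65.3 and 75.5 CPM in HFD and NC. None of these 4 passed 1.5-fold.

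Tgfb3, a ligand with roles in palate and lung development, differed in opposite directions between classes. In Pi16 fibroblasts, the adventitial class around vessels and airways, it was at 87.7 CPM in HFD and 50.2 CPM in NC, a ratio of 1.75 (1.37 to 2.24). In the class labelled pericytes it was at 49.998 CPM in HFD and 85.7 CPM in NC, a ratio of 0.583 (0.446 to 0.766). Myofibroblasts had 82.8 CPM in HFD and 43.7 CPM in NC, a ratio of 1.89 (1.24 to 2.93), but 97.5 effective counts, under the minimum for a call. Thinned shares of cells with a count followed the levels, at 10.8% in HFD and 7.70% in NC Pi16 fibroblasts, 10.2% in HFD and 4.65% in NC myofibroblasts, and, for the class labelled pericytes, 7.55% in HFD and 12.4% in NC. Some markers of other classes were also higher in HFD Pi16 fibroblasts, and others were not. The 6 alveolar markers summed to 4150 CPM in HFD and 3157 CPM in NC. Of these, Mfap4 alone was higher by size, at 1110 and 685 CPM. The 6 pericyte markers summed to 114 CPM in HFD and 71.1 CPM in NC, most of it Pdgfrb, at 108 and 63.3 CPM. Pdgfrb alone was higher by size. Cspg4 (3.43 and 2.54 CPM) and Kcnk3 (0.946 and 0.528 CPM) also stood higher in HFD. Notch3 (1.65 and 3.49 CPM), Rgs5 (0.118 and 0.423 CPM) and Higd1b (0.709 and 0.845 CPM) stood lower. The 5 myofibroblast markers summed to 587 CPM in HFD and 491 CPM in NC. Of these, 2 were higher by size, Aspn at 133 and 76.5 CPM and Hhip at 191 and 116 CPM. Lgr6 was at 1.18 and 0.740 CPM. The contractile genes on the list went the other way, Acta2 at 124 and 157 CPM and Tagln at 139 and 141 CPM. The part of these markers in the Tgfb3 difference was not tested. The highest level was in Pi16 fibroblasts in HFD, though its step over myofibroblasts, 1.06-fold (0.782 to 1.45), holds 1, and in the class labelled pericytes in NC, 1.71-fold over the next (1.29 to 2.26). In the pooled fibroblasts Tgfb3 was at 38.5 CPM in HFD and 28.0 CPM in NC, a ratio of 1.37 (1.20 to 1.56). With the 4 classes weighted equally the log2 ratio was 0.70, past 1.5-fold, and without Pi16 fibroblasts it was 0.31. In Pi16 fibroblasts, 3.83% of 4908 genes were called higher and 4.42% lower; of the 6 genes measured there, Tgfb3 was called higher and Thbs1 lower.

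Thbs1 was the one gene of the 9 that was lower in HFD in all 5 classes. Myofibroblasts had 5260.4 CPM in HFD and 8188 CPM in NC, a ratio of 0.642 (0.617 to 0.668). Gas6 fibroblasts had 3134 and 4568 CPM (0.686), and Asc1 fibroblasts 2179 and 3181 CPM (0.685). The class labelled pericytes had 1093 CPM in HFD and 2315 CPM in NC, the lowest ratio of the 5, at 0.472 (0.448 to 0.498). Pi16 fibroblasts had 625 and 1099.6 CPM (0.569, 0.529 to 0.611). The order of the classes was the same in both libraries, with myofibroblasts first and Pi16 fibroblasts last. No interval of a step held 1, though these intervals are too narrow for Thbs1. The median cell was lower in HFD in every class. In myofibroblasts it had 3663 CPM in HFD and 6364 CPM in NC, and in Gas6 fibroblasts 2344 and 3749.6 CPM. In Pi16 fibroblasts the medians were 0 and 176 CPM, and the 25th percentile was 0 in both libraries. There 1 HFD cell held 438 of 5291 counts. Without the 1% of Pi16 cells with most Thbs1 counts the log2 ratio was -0.95. Thinned shares of cells with a count were lower in HFD in every class, for example 83.6% and 92.5% in Gas6 fibroblasts and 30.8% and 45.8% in Pi16 fibroblasts of HFD and NC. The SNAT2 subset of the Asc1 class, 245 HFD and 359 NC cells, had 3426 and 5194 CPM.

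In the pooled fibroblasts Thbs1 was at 2461 CPM in HFD and 3713 CPM in NC, a ratio of 0.663 (0.654 to 0.672), just past the call. Of 16 other settings, 11 kept it past 1.5-fold, and the log2 ratio ranged between -0.72 and -0.55. Thbs1 is also induced by tissue handling. The 10 immediate early genes, a sign of such handling, summed to 33606 CPM in HFD fibroblasts and 31427 in NC fibroblasts, 1.07-fold higher in HFD, and none passed 1.5-fold. Over thinned cells the rank correlation of Thbs1 with that sum was weak and of either sign, between -0.20 in NC Gas6 fibroblasts and 0.23 in the NC class labelled pericytes. The part of handling in the Thbs1 level was not tested.

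**Figure D2:**
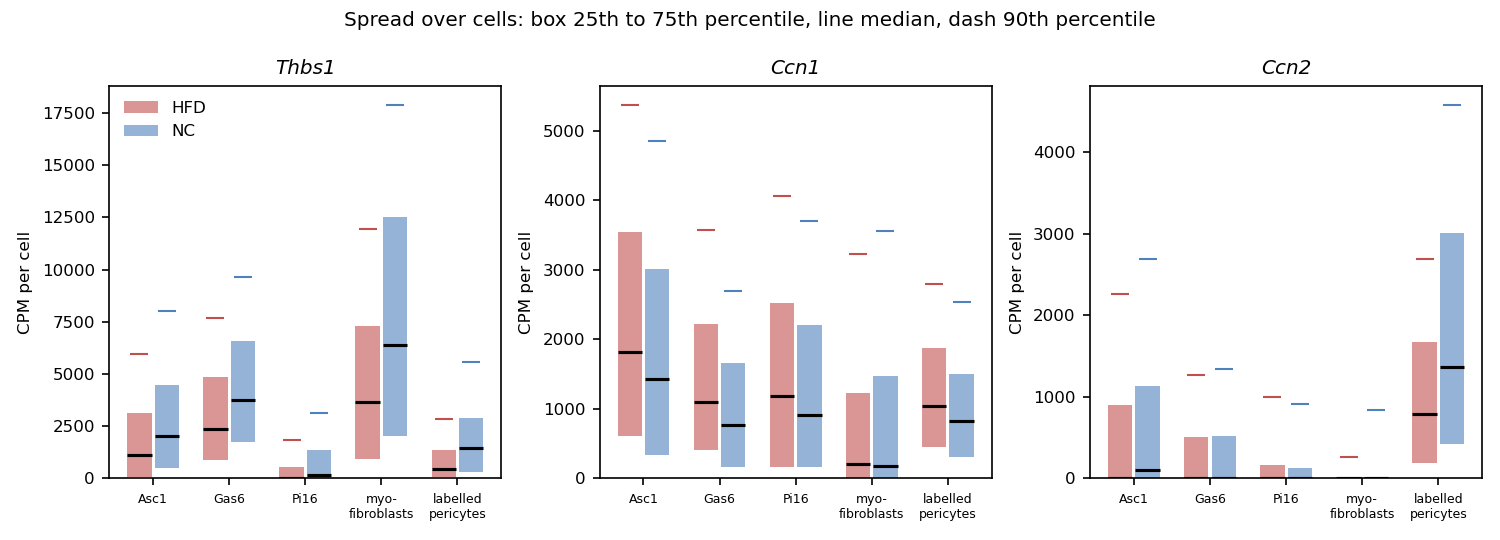
CPM per cell (y axis) of Thbs1, Ccn1 and Ccn2 in the 5 classes (x axis), HFD left of NC, with a box for the 25th to 75th percentile of cells, a line for the median and a dash for the 90th percentile. The Thbs1 medians lie lower in HFD in every class, as in myofibroblasts with 3663 and 6364 CPM. The Ccn2 boxes differ most in the class labelled pericytes, with medians of 785 CPM in HFD and 1367 CPM in NC.

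The ratios of the CCN genes lay on opposite sides of 1 in 3 of the 5 classes, in Gas6 fibroblasts with an interval for Ccn2 (0.920 to 1.04) that holds 1. Ccn1 encodes CYR61, a matrix-bound protein that signals through integrins. It was at 1892 CPM in HFD fibroblasts and 1522 CPM in NC fibroblasts, a ratio of 1.24 (1.22 to 1.27). The ratio was above 1 in 4 classes, with Gas6 fibroblasts at 1536 CPM in HFD and 1142 CPM in NC, the largest of the 5 at 1.35 (1.30 to 1.39). Asc1 fibroblasts had 2354 and 2008 CPM, Pi16 fibroblasts 1633 and 1442 CPM, and the class labelled pericytes 1315 and 1042 CPM in HFD and NC. Only in myofibroblasts was the ratio below 1, at 1014 CPM in HFD and 1143 CPM in NC (0.888, 0.806 to 0.978). That interval is too narrow: the effective counts, 742 and 965, exceed the 284 HFD and 352 NC cells with a count. Whether it would still exclude 1 with a factor fitted to Ccn1 was not tested. No class passed 1.5-fold.

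Ccn2 encodes CTGF, a matricellular protein long used as a readout of TGF-beta in fibrosis. It was highest in the class labelled pericytes, at 1206 CPM in HFD and 2006 CPM in NC, a ratio of 0.601 (0.569 to 0.635). Its median cell there had 785 CPM in HFD and 1367 CPM in NC, and 62.8% and 75.2% of thinned cells had a count. In myofibroblasts, the class with the least Ccn2, the level was 122 CPM in HFD and 258 CPM in NC, a ratio of 0.471 (0.364 to 0.606), with counts in 74 of 510 HFD cells and 117 of 667 NC cells. Asc1 fibroblasts had 708 CPM in HFD and 884 CPM in NC (0.801, 0.768 to 0.834), and Gas6 fibroblasts 419.6 and 429 CPM. Pi16 fibroblasts alone were above 1, with 329 CPM in HFD and 302 CPM in NC (1.09, 0.973 to 1.22). Over the pooled fibroblasts the levels were 519.6 CPM in HFD and 579 CPM in NC, a ratio of 0.897.

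Ccn1 and Ccn2 were found in the same cells slightly more often than their separate shares give. In thinned Asc1 fibroblasts 956 HFD cells held both where 893 were expected, and 1330 NC cells where 1195 were expected. The excess was between 1.02-fold and 1.46-fold over the 5 classes and 2 libraries. Rank correlations between the pair were weak, between 0.03 and 0.21, over cells that share a library and a depth.

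In the class labelled pericytes, 4 of the 6 genes measured were lower by size: Tgfb2, Tgfb3, Thbs1 and Ccn2. Among all 4434 genes measured in that class, 5.91% were called lower and 7.19% higher. Ccn1 and Postn, the other 2, stood above 1. In the same class the 6 pericyte markers summed to 569 CPM in HFD and 357 CPM in NC, 2 of them higher by size, while the 5 smooth muscle markers were at 18281 and 17774 CPM. Of the adventitial markers, the summed level was 156 CPM in HFD and 343 CPM in NC. The mix of cells inside this class can therefore differ between the libraries, and its part in the 4 lower genes was not tested.

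**Figure D3:**
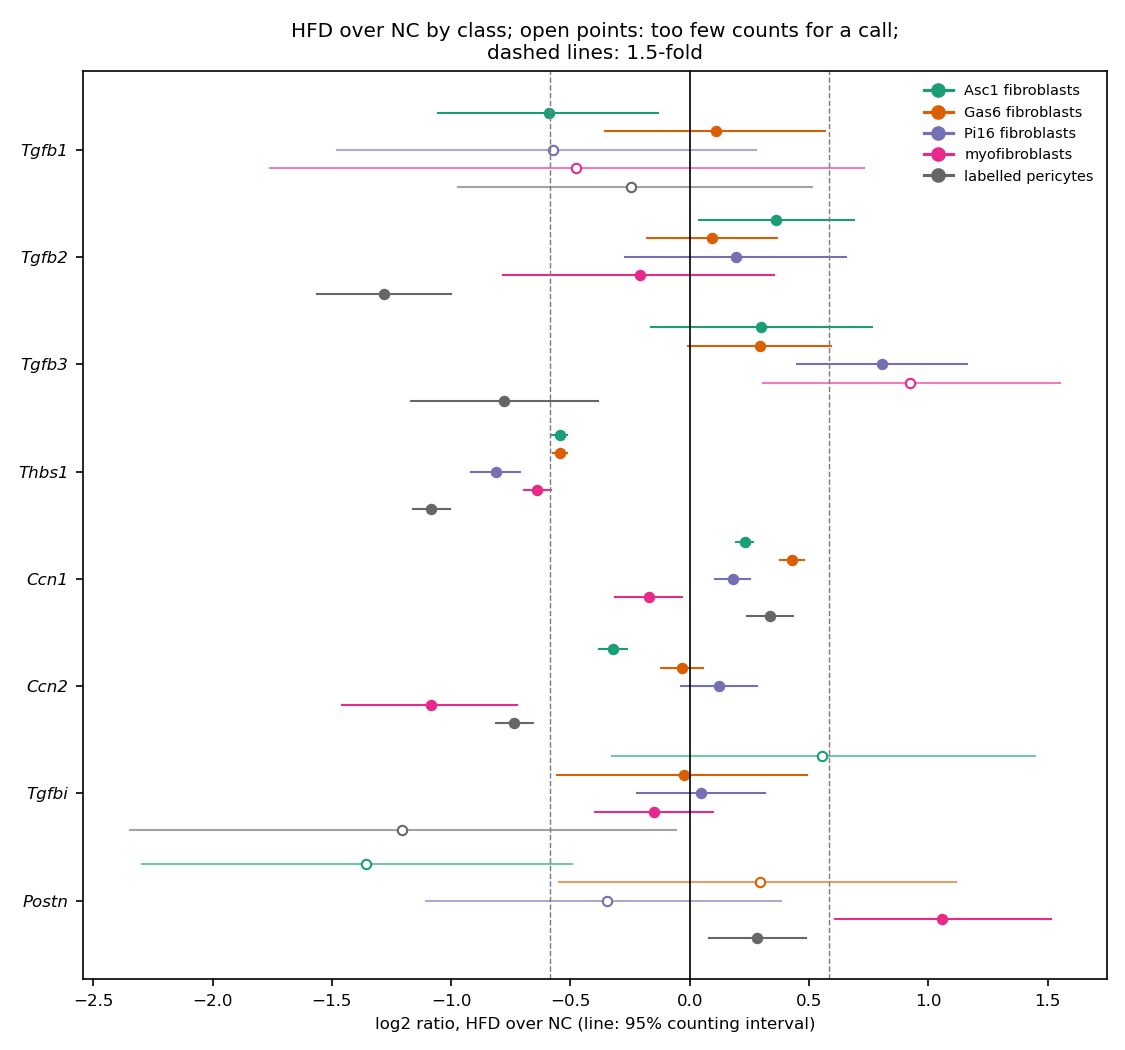
HFD over NC log2 ratio (x axis) of 8 genes in each of the 5 classes (colours), with lines for the 95% counting interval, open points for too few counts and dashed lines at 1.5-fold. All 5 Thbs1 points lie left of 0, while those of Tgfb3 lie on both sides, at 0.81 in Pi16 fibroblasts and -0.78 in the class labelled pericytes.

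Tgfbi encodes a collagen-binding matrix protein induced by TGF-beta. It was a gene of myofibroblasts, at 336 CPM in HFD and 372 CPM in NC, and of Pi16 fibroblasts, at 118 and 114 CPM. The other classes were at 12.9 CPM or less. The ratio was 0.902 (0.760 to 1.07) in myofibroblasts, 1.03 (0.858 to 1.24) in Pi16 fibroblasts and 1.05 (0.937 to 1.18) in the pooled fibroblasts. These intervals hold 1 and, as computed with the factor from rare genes, exclude a 1.5-fold difference by counting error. A count was found in 42.5% of myofibroblasts in HFD and 42.3% in NC, against 0.938% and 0.675% of Asc1 fibroblasts. These shares depend on depth. With cells thinned to 2000 counts, myofibroblasts were at 27.8% (24.0 to 32.0) in HFD and 32.1% (28.6 to 35.8) in NC.

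Postn encodes periostin, a matrix protein of contractile and injury-activated mesenchymal cells. It was mainly a gene of the class labelled pericytes, at 291 CPM in HFD and 239 CPM in NC, a ratio of 1.22 (1.06 to 1.40). There, 66.4% of HFD cells and 62.4% of NC cells had a count. With cells thinned to 2000 counts those shares were 31.9% and 33.2%, and the log2 ratio was -0.09. Asc1 fibroblasts, at 2.80 CPM in HFD and 7.17 CPM in NC, had 61.2 effective counts, too few for a call.

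Myofibroblasts had 162 CPM of Postn in HFD and 77.9 CPM in NC, a ratio of 2.08 (1.53 to 2.85) that was called higher. It rested on few cells. The effective counts, 118 in HFD and 65.8 in NC, exceed the number of cells with a count. The factor is therefore too small for Postn here, the interval is too narrow, and the call depends on that factor. Counts lay in 23 of 510 HFD cells and 22 of 667 NC cells, 1 HFD cell held 121 of the 575 counts, and the 10 richest cells held 75.3% of the counts in HFD and 72.5% in NC. In thinned cells the log2 ratio was 0.51, short of 1.5-fold. In myofibroblasts 5.42% of 2158 genes were called higher and 5.65% lower, and of the 6 genes measured there Postn was called higher and Thbs1 and Ccn2 lower. The 5 immune markers summed to 151 CPM in HFD and 37.5 in NC in this class, and none was called by size. Most of the sum was Lyz2 (76.6 and 0.594 CPM) and Plac8 (63.9 and 30.9 CPM). Ptprc and Cd3e were at 0 in both libraries. In the same class the 6 pericyte markers summed to 330 CPM in HFD and 252 CPM in NC, 1 of them higher by size. The 5 smooth muscle markers summed to 1128 and 1460 CPM, 1 of them lower by size. The part of immune, pericyte or smooth muscle cells in the Postn ratio was not tested.

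Over all kept cells Postn was at 66.7 CPM in HFD and 25.8 CPM in NC, a ratio of 2.58 (2.31 to 2.89), which was above the ratio in any class measured. The class labelled pericytes held 81.3% of Postn counts in HFD and 58.5% in NC, and 18.6% and 6.31% of all counts. With HFD class levels taken at the NC shares of counts, an alternative chosen after the class levels had been seen, Postn was at 31.4 CPM and the ratio was 1.22. The ratio over all cells was therefore as large as 2.58 only with the class shares of each library. Ccn2 moved the other way under the same step, with a ratio of 0.968 over all cells and 0.819 at the NC shares. For Tgfb2 the ratio was 1.02 over all cells and 0.931 at the NC shares, for Thbs1 0.609 and 0.668, and for Ccn1 1.20 and 1.21.

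**Figure D4:**
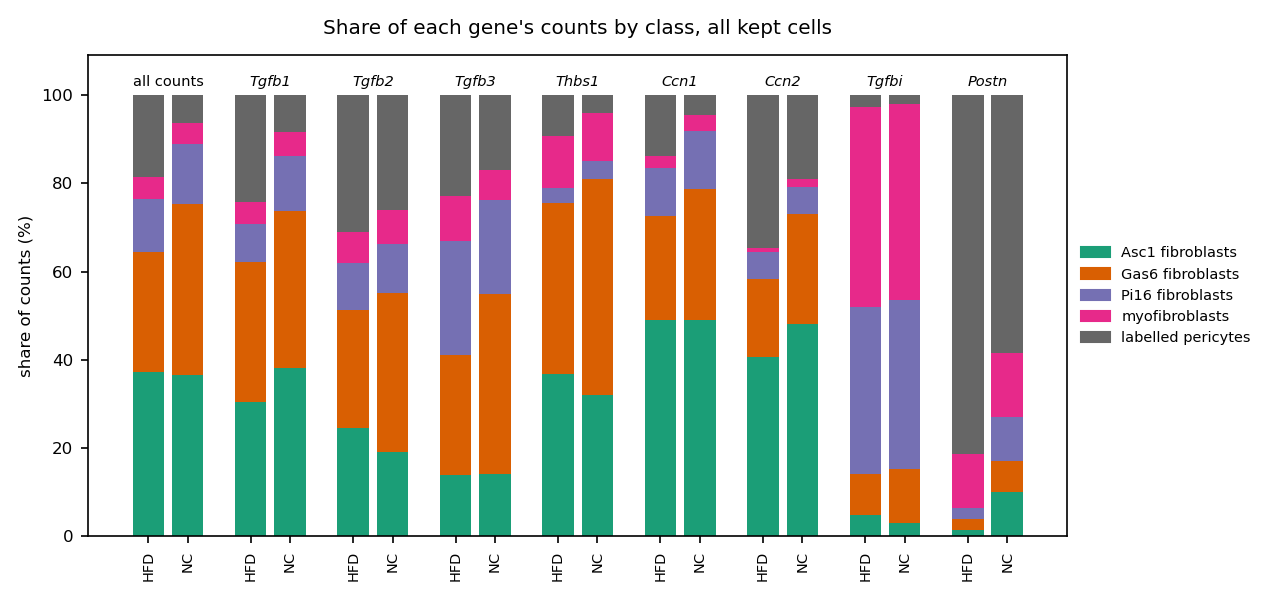
Share of counts in percent (y axis) that each of the 5 classes (colours) gave to all counts and to 8 genes, HFD left of NC. The class labelled pericytes gave 81.3% of Postn counts in HFD and 58.5% in NC, and 18.6% and 6.31% of all counts.

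Cthrc1, a secreted protein that marks collagen-rich fibroblasts in injured mouse lung, was close to undetected. Counts were in 6 of 5493 HFD fibroblasts and 7 of 7890 NC fibroblasts, 25 and 51 counts in all, and 1 NC Pi16 fibroblast held 36 of the 51. In the class labelled pericytes 1 HFD cell held 58 of 66 counts. No count was found in 3092 HFD and 3999 NC Asc1 fibroblasts, which allows a share of cells with a count of up to 0.097% and 0.075%. No difference can be read at this depth.

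In the remaining classes few of the genes passed the call. In Asc1 fibroblasts, 1 of the 6 measured, Tgfb1, was called lower and none higher, where 4.35% and 3.75% of 9011 genes were called lower and higher. In Gas6 fibroblasts none of the 7 measured was called, where 4.66% and 4.36% of 8326 genes were.

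The genes whose level across the 10 combinations of class and library followed each gene most closely were found among 3516 genes by Pearson correlation of log2 levels. They were Csrnp1 (0.964), Btg1 and Rcan1 for Thbs1, Lum (0.986), Enpp3 and Lhfpl2 for Tgfbi, and Ntrk3 (0.981), Itga1 and Filip1l for Postn. For Ccn2 they were Tmsb4x (0.975), Jph2 and Fryl, and for Ccn1 Plgrkt (0.969), Zfyve21 and Fam193b. Vcan (0.941), Sema3d and Eef1d followed Tgfb3, and Ap2m1 (0.946), Tpr and Cytl1 followed Tgfb2. The 10 values come from 2 libraries and share their depth, so these are descriptions.

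A further 95 genes of the pathway were examined in the pooled fibroblasts, with a minimum of 50 effective counts, which 85 reached. Of these, 2 were called higher and 9 lower, against 5.45% and 4.75% of 13422 genes. The ratio was below 1 for 61 and above 1 for 24, and the median log2 ratio was -0.16, against 0.02 for all genes measured. The median was below 0 in every role group and in each of the 5 classes.

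Of 7 measured genes of the latency group, mostly proteins that hold TGF-beta in its latent form, 6 were below 1 and 2 were called lower. Ltbp2, a latent TGF-beta binding protein family member, was at 18.0 CPM in HFD and 28.1 CPM in NC (0.642, 0.544 to 0.757), and Lrrc32, which encodes the membrane anchor GARP, at 22.6 and 36.2 CPM (0.624, 0.539 to 0.722). Class ratios of Ltbp2 ran both ways, at 0.266 in Asc1, 0.542 in Gas6 and 0.930 in Pi16 fibroblasts and 1.56 in myofibroblasts. Ltbp1 and Fbn1, which tether the latent complex to microfibrils, had ratios of 0.787 and 0.797. Ltbp1 was below 1 in 3 of the 5 classes and Fbn1 in all 5. Among 10 genes that can release the ligand, Plat, the tissue plasminogen activator, was at 119.8 CPM in HFD and 196 CPM in NC (0.611, 0.574 to 0.651). It was below 1 in all 5 classes. Itga8, an integrin subunit that binds latent TGF-beta, was above 1, at 545 and 479 CPM (1.14, 1.10 to 1.17).

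All 6 receptor genes were below 1 and none was called. Tgfbr2, the ligand-binding receptor, was at 237 CPM in HFD and 279 CPM in NC (0.850, 0.810 to 0.891), and Tgfbr3, the co-receptor betaglycan, at 169 and 179 CPM (0.947). None of 5 SMAD pathway genes was called, with Smad2 at 0.818 and Smad4 at 1.03. Of 15 inhibitors 1 was called lower, Fst, which encodes the activin-binding follistatin, at 4.64 CPM in HFD and 7.63 CPM in NC (0.608). By class Fst reached the minimum in Pi16 fibroblasts only, where the ratio was 0.852, short of the call. Smad7, a feedback inhibitor that TGF-beta itself induces, was at 178 CPM in HFD and 231 CPM in NC (0.771, 0.731 to 0.813), below 1 in all 5 classes.

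Of the other CCN and thrombospondin genes, Ccn4 was called lower at 5.92 CPM in HFD and 10.4 CPM in NC (0.570, 0.426 to 0.757). By class Ccn4 was at 0.572 in Gas6 fibroblasts, 0.909 in Pi16 fibroblasts and 1.30 in the class labelled pericytes. Ccn5 was above 1, at 154 and 121 CPM (1.27, 1.19 to 1.35), and Thbs3 below, at 27.0 and 36.9 CPM (0.730). In the YAP and SRF group 2 of 14 were called lower: Ptx3, at 3.24 CPM in HFD and 7.61 CPM in NC (0.425), and Mrtfa, an SRF coactivator, at 5.68 and 8.59 CPM (0.661). Mrtfa was named because the count is small, after its value was seen. Wwtr1, which encodes TAZ, was below 1 in all 5 classes and at 0.772 (0.703 to 0.849) in the pool.

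Of 23 other measured targets, 2 were called in each direction. Il11, a cytokine induced by TGF-beta, was at 3.50 CPM in HFD and 12.9 CPM in NC (0.270, 0.189 to 0.378). Timp1, a metalloproteinase inhibitor, was at 71.7 CPM in HFD and 147 CPM in NC (0.487, 0.450 to 0.527), below 1 in all 5 classes. Snai1, a transcription factor, was at 45.3 CPM in HFD and 26.7 CPM in NC (1.70, 1.49 to 1.93). Spp1, which encodes osteopontin, was at 20.5 and 9.02 CPM (2.27, 1.84 to 2.80). Its class ratios ran both ways, at 5.12 in Gas6 and 0.301 in Asc1 fibroblasts.

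**Figure D5:**
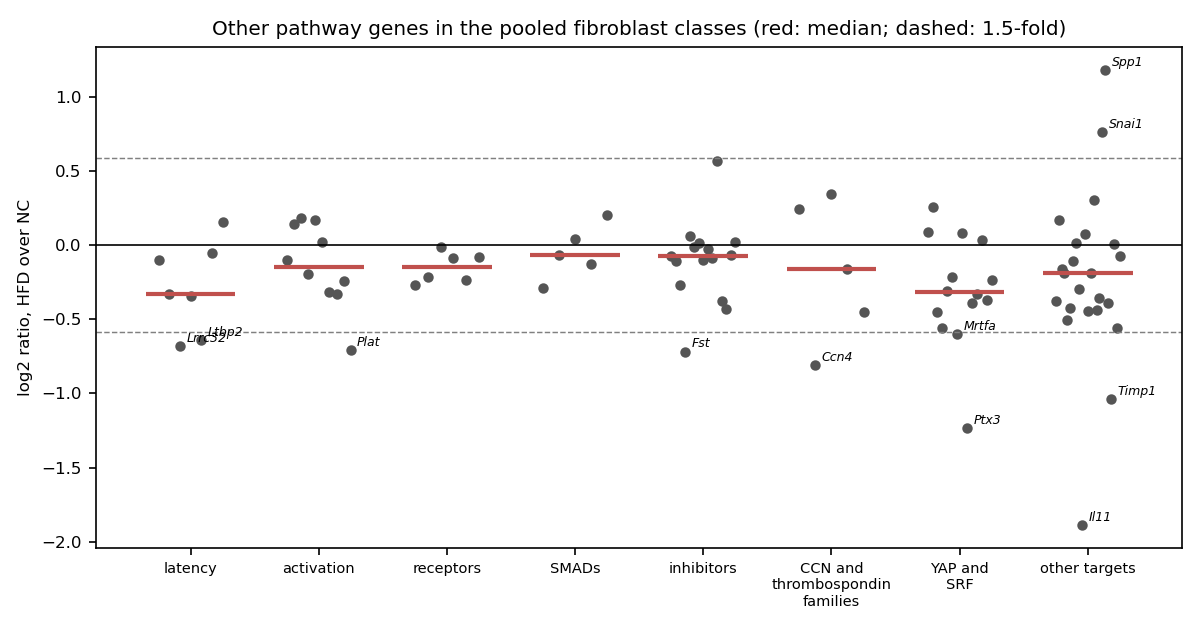
HFD over NC log2 ratio (y axis) in the pooled fibroblasts of the 85 measured pathway genes, by role (x axis), with a red line for the median of each role and dashed lines at 1.5-fold. More points lie below 0 (61) than above (24), and Il11, Ptx3 and Timp1 lie lowest.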

How the data were processed

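Per the labels' protocols, a 10x Genomics 3′ v3 kit was used, and the submitters' processing notes name STAR and mm39. Versions and molecule counting are not given in the sources used here. Each cell's deposited values are on a log2 scale, of CPM plus a pseudocount of 1, as found from the values. They also hold, per the file headers, a total per cell, used as an estimated count, a count of detected genes and a mitochondrial percent. Taking the values off the log2 scale and scaling them to the cell's total gave counts: 98.8% of HFD and 98.96% of NC nonzero values came out whole within 0.01, and all were rounded. In the HFD table an earlier column of totals did not describe its rows (Spearman 0.0494 with the later one), so the later column was used. A gene name table gave symbols for 96.03% of IDs.

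Cells under 500 genes or over 10% mitochondrial counts were left out (12.7% of HFD, 9.71% of NC). No doublet caller was run and doublets were not removed. Counts were summed per library and class. Ratio intervals are exact conditional 95% Poisson intervals on effective counts, the count divided by 4.85 (HFD) or 3.98 (NC), the median over rare genes of summed squared counts over summed counts; shares unthinned and thinned to 2000 counts per cell have exact Clopper-Pearson intervals, and a count of 0 is limited by 3 cells. The ratio calculation was tested on data simulated with the same factors, so the fit of the factors to each gene was not tested. Members, lists and the rule for named genes (all members, up to 4 per role with the interval bound farthest from 1, and the 3 genes closest in pattern) were chosen with earlier results of these data known. Python 3.11.15, numpy 2.4.6, scipy 1.17.1 and pandas 2.3.3 were used. Alternatives covered cell filters, thinning, per-cell means, scaling, class weights, classes left out, the fold rule, the minimum count and the richest cells.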

Additional observations from a re-analysis of the deposited data

Results flagged for a closer look

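The Tgfb3 ratio of HFD over NC was 1.75 in Pi16 fibroblasts and 0.583 in the class labelled pericytes, on opposite sides of 1. The difference between the classes was not tested, since each diet has 1 library.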

How the results depend on the processing

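The ratios with at least 100 effective counts, which cover 8 of the 9 genes and not Cthrc1, were recomputed under other cell filters, scalings, weights and classes: 310 values stayed within the counting interval of the reported ratio, 43 moved out of it, and no called ratio changed sign. Ratios under that minimum, such as Tgfb3 in myofibroblasts, were not recomputed. Other kinds of result moved more often. For the highest class of a gene 26 values moved and 54 stayed, and for shares of cells 144 moved and 120 stayed. In the pooled fibroblasts, the number of genes called lower was 1 as reported, 0 with the stricter cell filter, thinning, classes weighted by NC shares, without the Gas6 or the Pi16 class, or a 2-fold rule, and 2 without the richest 1% of cells or with no minimum count. The number called higher was 0 as reported, 1 without the richest 1% of cells, without the Gas6 or without the Pi16 class, and 2 with equal class weights, without the Asc1 class or at a lower fold rule. Pathway genes called higher were 2 as reported, 4 without the richest 1% of cells, at a lower fold rule or with no minimum, and 1 at 2-fold. Those called lower were 9 as reported, 5 without the Asc1 class, 3 at 2-fold and 28 at a lower fold rule. The cause of these changes was not tested. The pathway median log2 ratio stayed between -0.21 and -0.11. Postn in the pooled fibroblasts ranged between -0.46 on the log2 scale without myofibroblasts and 1.37 with the class labelled pericytes. Leaving out a replicate was not possible with 1 library per diet, and Cthrc1 is limited by depth. No paired analysis was possible because each diet has 1 library and no test was run.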
